A study of Homo sapiens with 18 samples.

Results

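The HOX genes were followed in OVCAR-3, an established human high-grade serous ovarian carcinoma cell line, during treatment with bromodomain inhibitors. Members were chosen by symbol: all protein-coding genes named HOXA, HOXB, HOXC or HOXD followed by a paralogue number, which gave 39 of the 58825 genes counted, of which 38 are described. There were 18 RNA sequencing libraries in 6 groups of 3 replicates, which had received DMSO (the vehicle control), i-BET858 at 1 µM or i-BET151 at 1 µM for 4 or 24 h. All groups shared the OVCAR-3 line, stripped medium and 12-well plates, so that results are those of 1 cell line. Each inhibitor was compared with DMSO of the same time, the inhibitors were set against each other at the same dose, and each effect at 24 h was set against that at 4 h. Both inhibitors were compared with the same DMSO libraries, so their effects are not independent of each other.

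HOX proteins are homeodomain transcription factors that give cells their position along the body axis. Their genes lie in 4 clusters and are numbered by paralogue group, and in the embryo the low-numbered (anterior) end of a cluster is used earlier and further forward than the high-numbered (posterior) end. In the female reproductive tract HOXA9, HOXA10, HOXA11 and HOXA13 pattern the oviduct, uterus, cervix and upper vagina. BET proteins bind acetylated lysines of histones through their bromodomains and help RNA polymerase II to start and elongate, and BET inhibitors (BETi) occupy these bromodomains.

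On GRCh38 the genes described span chr7:27100354-27200091 in HOXA (10 genes), chr17:48528526-48728750 in HOXB (10 genes), chr12:53938831-54056030 in HOXC (9 genes) and chr2:176092721-176190907 in HOXD (9 genes). Exons of 16 members overlap exons of another gene on the same strand and those of 19 members overlap a gene on the opposite strand. The annotation and the strand setting of the counting are not given in the sources used here, so reads in overlaps cannot be assigned with certainty.

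Library totals ranged from 27323969 to 46299994 counts, and 3 counts, the limit that a count of 0 allows, correspond to 0.0648 to 0.11 CPM (each count divided by the scaled library total). Intervals and limits of this kind cover counting error only. The libraries of replicate 3 had counts in 17817 to 20642 genes, against 23674 to 24947 in those of replicates 1 and 2, so the numbers of calls are also given without replicate 3. All 10 epithelial and serous ovarian markers were detected in every group. Their summed level was 8780 to 10200 CPM with DMSO, 11800 to 12300 under i-BET858 and 9900 to 10400 under i-BET151 at 4 h, and 8830 to 10300, 7170 to 7480 and 7100 to 7570 CPM at 24 h. The 11 markers of leukocytes, endothelium and fibroblasts summed to 23.8 to 56.6 CPM, mostly COL1A1, and CD3E and DCN were at or near 0. At 24 h, KRT18 was lower with both inhibitors and CDH1 higher under i-BET858, and of 4 tested markers of other cells 1 (COL1A2) was lower under i-BET858 and 0 were called under i-BET151 (2 at an unadjusted p under 0.05). The part of these shifts in the HOX results was not tested. In bulk RNA, fewer cells with a transcript and less of it in each cell cannot be told apart.

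With DMSO, OVCAR-3 used the HOX clusters unevenly, and HOXA5 was the most abundant HOX transcript. Levels were compared between genes as RPKM (CPM per kilobase of exon), over the 6 DMSO libraries of both times. HOXA5, a regulator of lung and thoracic patterning, averaged 31.7 RPKM (29.8 to 34.0) and made up 35.3 to 42.1% of the summed HOX level. HOXB7 followed at 11.6 RPKM (10.5 to 14.0), and HOXA3, needed for the thymus and parathyroid, at 9.26 (7.05 to 10.5). HOXA5 did not overlap with the other two, while HOXB7 and HOXA3 met at 10.5. Next came HOXA2, a determinant of second-arch identity, at 4.38 (2.82 to 5.51), HOXB13, known from prostate and tail patterning, at 3.88 (3.10 to 4.63), and HOXB4, a gene of blood stem cells, at 3.5 (2.72 to 4.25). These 3 overlapped with each other.

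The leading HOXD member was HOXD8 with 2.49 RPKM (1.92 to 2.94). In HOXC, HOXC6 had the highest mean with 1.11 (0.947 to 1.35), but overlapped with HOXC4 at 1.03 (0.511 to 1.59). Neither HOXD8 nor HOXC6 reached the level of HOXA3 in any DMSO library. Between HOXD8 and HOXC6 lay HOXB2, a hindbrain gene, with a mean of 2.42 RPKM (1.56 to 3.07). HOXA4, with 2.17 (1.91 to 2.43), also lay there, and both overlapped with HOXD8. These ranks hold for the length of all exons. By the longest transcript, HOXC4 (1.68) led HOXC6 (1.31), and HOXB2 (3.53) lay just above HOXB4 (3.5). Of the reproductive tract genes, HOXA9 averaged 1.76 RPKM, HOXA10 0.468 and HOXA11 0.216. HOXB1 had no count in any library, which at these depths allows up to 0.0648 to 0.11 CPM, and HOXC5 had none with DMSO. Thus the anterior and central HOXA genes and HOXB7, HOXB13 and HOXB4 carried most of the signal, and much of HOXC and HOXD lay close to the limit of detection. In total 13 members (HOXA6, HOXA13, HOXB1, HOXB5, HOXB8, HOXC5, HOXC9, HOXC10, HOXC11, HOXC12, HOXD3, HOXD9 and HOXD12) were below edgeR's filter on low counts in the fit of each time, with at most 0.64 CPM in any library. Of these, only HOXA6 and HOXD9 were called in a fit that kept them, as described below. Of the others, 24 were tested at 4 h and 22 at 24 h. HOXB6 was tested only at 24 h, and HOXD1, HOXD4 and HOXD10 only at 4 h.

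**Figure D1:**
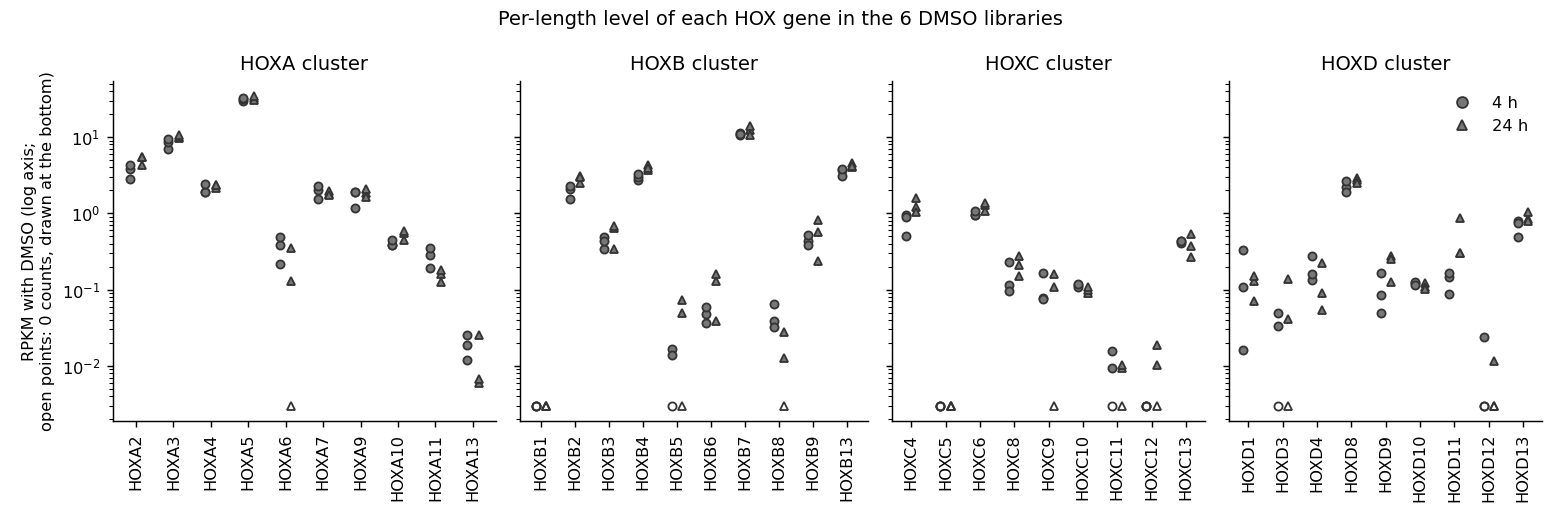
RPKM of each HOX gene in the 6 DMSO libraries on a log axis (circles 4 h, triangles 24 h, open points 0 counts), one panel per cluster, ordered by paralogue number. HOXA5 lies highest, between 29.8 and 34.0 RPKM, followed by HOXB7 (10.5 to 14.0) and HOXA3 (7.05 to 10.5).

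Upstream sequences are shown for 3 members whose values bear on the comparisons: HOXA2, which was called lower under i-BET858 at 4 h only, and HOXD8 and HOXD11, the called HOXD members, at 24 h only. They are RefSeq promoter sequences of GRCh38.p14, 5′ to 3′ on the gene's strand, ending before the annotated start. Capitals mark the CCAAT box on either strand (printed as ATTGG where it reads on the other), the E-box core CACGTG, or the GC box, which is GGGCGG and reads here on the other strand.
HOXA2 (chr7:27102687-27102933, minus strand): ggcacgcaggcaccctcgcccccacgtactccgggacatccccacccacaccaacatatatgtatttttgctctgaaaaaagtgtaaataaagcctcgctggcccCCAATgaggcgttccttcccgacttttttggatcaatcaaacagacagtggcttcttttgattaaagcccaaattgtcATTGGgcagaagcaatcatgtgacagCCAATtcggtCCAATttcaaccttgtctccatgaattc
HOXD8 (chr2:176129455-176129693, plus strand): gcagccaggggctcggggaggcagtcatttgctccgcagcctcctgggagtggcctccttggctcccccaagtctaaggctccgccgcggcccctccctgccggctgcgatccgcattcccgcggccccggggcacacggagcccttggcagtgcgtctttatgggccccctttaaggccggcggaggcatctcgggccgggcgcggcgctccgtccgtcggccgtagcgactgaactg
HOXD11 (chr2:176107030-176107279, plus strand; within an intron of a longer HOXD11 transcript): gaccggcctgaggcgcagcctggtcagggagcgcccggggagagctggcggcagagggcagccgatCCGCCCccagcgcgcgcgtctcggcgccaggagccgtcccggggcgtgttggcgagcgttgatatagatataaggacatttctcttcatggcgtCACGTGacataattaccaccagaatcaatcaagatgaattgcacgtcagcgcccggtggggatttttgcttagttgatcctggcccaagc
The HOXA2 window holds 4 CCAAT boxes and 8 CpG, the HOXD8 window no motif searched and 25 CpG, and the HOXD11 window 1 E-box core, 1 GC box and 23 CpG. RefSeq promoters were at hand for 20 members (27 entries, some of which share a gene or a window) and for 8 of the 15 members called below. In the 250 bases before the start, on either strand, CCAAT (binding site of NF-Y) stood in 18 of the 27 entries (66.7%) against 32.0% of 35116 promoters. The E-box core stood in 8 (29.6%, against 6.34%), the GC box in 13 (48.1%, against 42.6%) and TATAAA (a core promoter element) in 5 (18.5%, against 10.7%). The direct-repeat retinoic acid response element with a spacer of 5 bases (DR5) stood in 0, against 0.00285% of promoters. The median CpG count was 19, against 11 over all promoters. These are matches of letters and not measured binding, and a window without a match says nothing of the factor.

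After 4 h of i-BET858, every HOX transcript called was lower. Calls required an adjusted p under 0.05 by edgeR's quasi-likelihood test and a fold change of at least 2, with p-values adjusted over all genes tested. These p-values measure the spread between the 3 replicates of a group, which the study calls biological. Lower calls were made for 7 of the 24 members tested (HOXA2, HOXA3, HOXA7, HOXB2, HOXB4, HOXC4 and HOXC6), where 7% of all genes tested were lower and 7.08% higher (14.1% in either direction), and 0 members were higher. Under i-BET151, 5 members (HOXA3, HOXA7, HOXB4, HOXB13 and HOXC6) were called lower, against 2.97% lower and 4.12% higher of all genes (7.1% in either direction), and 0 were called higher. An unadjusted p under 0.05 was reached by 13 and 12 members (40.4% and 29.5% of all genes), all of them lower, and DESeq2 called 0 higher. The median log2 fold change over the members tested was -0.80 under i-BET858 and -1.04 under i-BET151, against 0.02 and 0.01 over all genes tested. HOXA11 (among the 13 members above), HOXC8, HOXD4, HOXD10 and HOXD11 passed the filter on low counts only with their DMSO libraries. Counts and medians that include them are no support for a direction. DESeq2 called 9 and 7 members (14.5% and 8.22% of all genes), which included 6 and 5 of those named. With the replicate number as a block, 9 and 9 were called (15.6% and 8.85% of all genes), all lower, which for i-BET151 added HOXA10, HOXB3, HOXC4 and HOXD13. Replicates 1 and 2 alone gave 11 and 8 calls (19.4% and 11% of all genes), which included 6 and 3 of those named, and among which HOXD1 was higher under i-BET858. HOXD1 had 1, 8 and 20 counts with DMSO, 16, 16 and 27 under i-BET858 and 4, 6 and 0 under i-BET151. At 4 h, 1 DMSO and 3 inhibitor libraries of HOXD1 were above the filter, the latter all of i-BET858. Its call is therefore a description and no support for a direction.

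In the HOXA cluster, the fall at 4 h was clearest for HOXA3 and spared HOXA5. HOXA3 had 30.4, 36.9 and 41.1 CPM with DMSO, 9.89, 10.1 and 11.6 under i-BET858, and 14.4, 15 and 12.8 under i-BET151. Both inhibitor groups lay below every DMSO library. HOXA3 fell 3.42-fold under i-BET858 (log2 fold change -1.77 ± 0.16 SE, edgeR adjusted p = 1.43e-05) and 2.57-fold under i-BET151 (-1.36 ± 0.16, adjusted p = 0.000216), and both calls held with each library left out. The gene lies at chr7:27106184-27152583, and 9.3% of its exon bases overlap same-strand and 17.3% opposite-strand genes, among them HOXA-AS2 and HOXA-AS3.

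HOXA2, its neighbour at chr7:27100354-27102686 with no exon overlap, had 6.57, 8.92 and 10.1 CPM with DMSO, 4.49, 3.58 and 3.55 under i-BET858 and 4.58, 6.44 and 4.55 under i-BET151. No inhibitor library reached the lowest DMSO library. The log2 fold change was -1.14 ± 0.24 under i-BET858 (adjusted p = 0.00429), and -0.72 ± 0.24 under i-BET151 did not pass (adjusted p = 0.065). Without replicate 3 the i-BET858 value was -0.94, short of a 2-fold change.

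HOXA7 (chr7:27153716-27157936), a gene linked to Müllerian differentiation, had 4.88, 3.74 and 5.42 CPM with DMSO, 1.68, 1.44 and 1.96 under i-BET858 and 2.33, 2.51 and 1.88 under i-BET151, again without overlap. It fell by 1.46 ± 0.28 (adjusted p = 0.00215) and 1.07 ± 0.27 (adjusted p = 0.0216) on the log2 scale, although 62.5% of its exon bases overlap HOXA-AS3 on the opposite strand. The i-BET151 call was lost without DMSO replicate 1 or 3, or without any of the i-BET151 replicates (-1.21 to -0.95, adjusted p up to 0.0837). Here and for the other calls, such a range covers the fits with each library left out in turn, also those in which the call held.

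HOXA5 (chr7:27141052-27143681, no exon overlap) lay at 51.3, 54.1 and 56.2 CPM with DMSO, 43.0, 53.8 and 52.4 under i-BET858, and 57.1, 68.8 and 71.0 under i-BET151. The i-BET858 values overlapped the DMSO range and the i-BET151 values lay above it, and neither difference passed (-0.11 ± 0.13, adjusted p = 0.583, and 0.28 ± 0.13, adjusted p = 0.186). HOXA9, the oviduct gene, had log2 fold changes of -0.06 and 0.03 (adjusted p = 0.912 and 0.965). HOXA4 had -0.50 ± 0.57 (adjusted p = 0.555) and -1.41 ± 0.59 (adjusted p = 0.135). Every i-BET151 library of HOXA4 lay below DMSO, and it passed there without a filter (adjusted p = 0.0144) and in the fit of all 18 libraries (0.0447). Under i-BET858, replicate 3 lay above DMSO, and replicates 1 and 2 alone gave a call at -1.10 (adjusted p = 0.00795).

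The lowly expressed reproductive tract genes HOXA10 (chr7:27170605-27180261) and HOXA11 (chr7:27181157-27185232) lay lower in every inhibitor library at 4 h, without passing the test. HOXA10 had 1.44, 1.42 and 1.66 CPM with DMSO, 0.620, 0.0656 and 0.483 under i-BET858 and 0.278, 0.145 and 0.843 under i-BET151. Its log2 fold changes were -1.94 ± 0.78 (adjusted p = 0.0837) and -1.80 ± 0.78 (adjusted p = 0.146), and with the replicate number as a block they passed at -2.24 (adjusted p = 0.0192) and -2.14 (adjusted p = 0.0322). Both also passed in replicates 1 and 2 alone (0.0203 and 0.0118). The i-BET858 change alone passed by DESeq2 (0.0339), without a filter (0.0456), in the fit of all 18 libraries (0.0432) and with only the 2 groups compared (0.0442). HOXA11 had 0.768, 0.515 and 0.940 CPM with DMSO, 0.146, 0.230 and 0 under i-BET858 and 0.0347, 0.182 and 0.393 under i-BET151. Its log2 fold changes were -2.55 ± 1.05 (adjusted p = 0.0905) and -1.82 ± 1.00 (adjusted p = 0.257). HOXA11 was called under i-BET858 by DESeq2 (-2.57, adjusted p = 0.0419) and with only the 2 groups compared (adjusted p = 0.0485), and with both inhibitors in replicates 1 and 2 alone (adjusted p = 0.0465 and 0.0204). At 4 h HOXA11 was above the filter in 3 DMSO libraries and 1 inhibitor library and so passed it only with its DMSO libraries. Its values and calls at 4 h are therefore a description and no support for a direction. HOXA6 (chr7:27145396-27150603; 39.3% of exon bases opposite HOXA-AS3), which was too low for the test, had 9, 19 and 20 counts with DMSO, 0 in all 3 i-BET858 libraries and 0, 4 and 0 under i-BET151. Under i-BET858 a limit of 3 counts over the group stood against 48 DMSO counts. DESeq2 (adjusted p = 0.00306) and the edgeR fit of all 18 libraries (adjusted p = 0.016) called HOXA6 lower under i-BET858. At 4 h it was above the filter in 2 DMSO and 0 inhibitor libraries, and at 24 h in 1 of each. It thus entered that edgeR fit only with its DMSO libraries, so these calls are a description and no support for a direction.

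In the HOXB cluster at 4 h, HOXB4 fell with both inhibitors. HOXB4 (chr17:48575507-48578350, 2.2% of exon bases shared with HOXB3) had 5.44, 6.06 and 6.58 CPM with DMSO, 1.97, 2.36 and 1.53 under i-BET858 and 2.01, 3.64 and 2.33 under i-BET151. No inhibitor library reached the DMSO range, and the log2 fold changes were -1.62 ± 0.29 (adjusted p = 0.00156) and -1.18 ± 0.29 (adjusted p = 0.017). The i-BET151 call was lost without DMSO replicate 2 or 3 or i-BET151 replicate 1 (-1.47 to -1.02, adjusted p up to 0.0811).

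HOXB2 (chr17:48540894-48545109, 3.5% opposite HOXB-AS1) had 3.84, 5.18 and 5.55 CPM with DMSO, 2.34, 1.84 and 3.01 under i-BET858 and 2.15, 1.96 and 3.74 under i-BET151. Every inhibitor library lay below DMSO. The i-BET858 change of -1.01 ± 0.33 (adjusted p = 0.0348) was called and the i-BET151 change of -0.89 ± 0.32 (adjusted p = 0.09) was not. The call was lost without DMSO replicate 2 or 3 or i-BET858 replicate 1 or 2 (-1.22 to -0.85, adjusted p up to 0.12). It was also lost just under 2-fold by DESeq2 (-1.0, adjusted p = 0.0146), with its size factors in edgeR (-1.0, adjusted p = 0.037), with only the 2 groups compared (-1.0, adjusted p = 0.0266) and with at least 10 counts in every library (-0.99, adjusted p = 0.0338).

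HOXB3 had 2.55, 3.61 and 3.26 CPM with DMSO, 1.46, 1.84 and 1.87 under i-BET858 and 1.84, 1.96 and 0.871 under i-BET151 at 4 h, without overlap. Its changes of -0.86 ± 0.36 (adjusted p = 0.0921) and -1.02 ± 0.36 (adjusted p = 0.0794) did not pass, and the latter did with the replicate block (-1.04, adjusted p = 0.031) and by DESeq2 (adjusted p = 0.0404). Some HOXB members lay above DMSO under i-BET858. HOXB9 (chr17:48621156-48626358, no exon overlap) had 1.11, 1.34 and 1 CPM with DMSO, 1.64, 1.41 and 2.44 under i-BET858 and 1.18, 1.67 and 0.0281 under i-BET151, and its changes of 0.68 ± 0.78 (adjusted p = 0.565) and -0.28 ± 0.79 (adjusted p = 0.861) did not pass. HOXB6, below the filter at 4 h, had 4, 6 and 3 counts with DMSO, 5, 13 and 11 under i-BET858 and 4, 1 and 0 under i-BET151.

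HOXB7 (chr17:48607232-48633572, no exon overlap), which is often raised in carcinomas, had 16.1, 17.0 and 16.6 CPM with DMSO, 8.43, 6.92 and 9.46 under i-BET858 and 10.1, 7.46 and 9.19 under i-BET151. The groups did not overlap, and the changes of -1.0 ± 0.18 (adjusted p = 0.00172) and -0.90 ± 0.18 (adjusted p = 0.00685) passed the adjusted p but stayed just under 2-fold. With the replicate block, HOXB7 reached 2-fold under i-BET858 (-1.01, adjusted p = 0.000107). It also did so by total library size (-1.16), without a filter (-1.02), in the fit of all 18 libraries (-1.0) and in replicates 1 and 2 alone (-1.11), but not by DESeq2. HOXB13 (chr17:48724763-48728750, no exon overlap), set apart from the other HOXB genes, had 11.1, 9.43 and 11.4 CPM with DMSO, 5.88, 5.58 and 6.48 under i-BET858 and 7.05, 5.60 and 2.39 under i-BET151. All inhibitor libraries lay below DMSO. The change of -0.83 ± 0.32 under i-BET858 did not pass (adjusted p = 0.0706), and that of -1.09 ± 0.32 under i-BET151 did (adjusted p = 0.0387). The latter was lost without any DMSO replicate, i-BET151 replicate 2 or 3, or i-BET858 replicate 1 or 2, which share the estimate of the spread (-1.42 to -0.75, adjusted p up to 0.112).

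The HOXC transcripts HOXC4 and HOXC6, regulators of neck and thoracic identity, had the largest falls called under i-BET858 at 4 h. Their exons overlap each other, so they are not independent. Same-strand genes share 17.5% of the exon bases of HOXC4 (chr12:54016931-54056030; HOXC6 and an unnamed noncoding RNA) and 16.1% of those of HOXC6 (chr12:53990624-54030823; the same RNA, HOXC4 and HOXC9). HOXC6 had 3.29, 3.27 and 3.70 CPM with DMSO, 0.839, 1.12 and 0.312 under i-BET858 and 1.11, 1.20 and 1.38 under i-BET151. It fell 4.52-fold under i-BET858 (-2.18 ± 0.43, adjusted p = 0.00269) and 2.78-fold under i-BET151 (-1.47 ± 0.42, adjusted p = 0.033), with no overlap between groups. The i-BET151 call was lost without any DMSO replicate or i-BET151 replicate 1 or 2 (-1.57 to -1.41, adjusted p up to 0.115).

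HOXC4 had 1.41, 2.65 and 2.51 CPM with DMSO, 0.511, 0.459 and 0 under i-BET858 and 0.417, 0.509 and 0.337 under i-BET151. All inhibitor libraries lay below DMSO. The change of -2.77 ± 0.84 under i-BET858 was called (adjusted p = 0.0263) and that of -2.38 ± 0.82 under i-BET151 was not (adjusted p = 0.0722), though it passed with the replicate block (-2.44, adjusted p = 0.0206). The i-BET151 change also passed by DESeq2 (adjusted p = 0.00712), without a filter (0.00559), in the fit of all 18 libraries (0.0168), with only the 2 groups compared (0.00696) and in replicates 1 and 2 alone (0.0036). It was not called with DESeq2's size factors or by total library size. The i-BET858 call was lost without DMSO replicate 2 or 3 or i-BET858 replicate 2 (-3.26 to -2.17, adjusted p up to 0.0938). In the HOXD cluster no member was called at 4 h by edgeR or DESeq2, and HOXD8 under i-BET858 was the only one with an unadjusted p under 0.05. HOXD13 under i-BET151 passed with the replicate block, and without replicate 3 HOXD8 (i-BET151) and HOXD1 (i-BET858) passed, the latter a description only, as given above. HOXD8, its leading member, had 5.77, 6.96 and 5.05 CPM with DMSO, 3.72, 3.58 and 3.10 under i-BET858 and 2.88, 3.05 and 5.73 under i-BET151, where replicate 3 lay within the DMSO range. Its changes were -0.77 ± 0.29 (adjusted p = 0.0687) and -0.61 ± 0.29 (adjusted p = 0.196).

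After 24 h, HOXA5 was called higher under i-BET858, HOXA2 and HOXA3 were no longer lower, and members of all 4 clusters were called lower with either inhibitor, in HOXA the posterior HOXA11 (both) and HOXA10 (i-BET151). Whether clusters differed was not tested. Under i-BET858, 1 of the 22 members tested was called higher and 9 lower, where 7.65% of all genes tested were higher and 11.2% lower (18.8% in either direction). An unadjusted p under 0.05 was reached by 14 members (49% of all genes). Under i-BET151, 0 were called higher, by DESeq2 as well, and 9 lower, against 5.59% and 8.09% (13.7% in either direction). An unadjusted p under 0.05 was reached there by 12 members (43.4% of all genes), of which HOXA5 alone was higher. The members' median log2 fold change was -1.39 and -0.78, against -0.01 and 0 over all genes. DESeq2 called 12 and 10 members (17.6% and 13.5% of all genes), which included those named below. Replicates 1 and 2 alone gave 12 and 10 calls (24.1% and 18.8% of all genes), which included all named below but HOXA5. Of the lower calls, HOXA11, HOXC8 and HOXD11 passed the filter on low counts through their 3 DMSO libraries alone, with 0 inhibitor libraries above it. They could therefore be tested only because they were higher with DMSO, so their calls are a description, and counts and medians that include them are no support for a direction. Leaving out these 3 and HOXB6, which also passed only with its DMSO libraries (2 of them and 1 inhibitor library), 18 members had 1 higher and 6 lower calls under i-BET858 and 0 and 6 under i-BET151. This count was chosen after seeing the data.

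HOXA5 at 24 h had 55.1, 52.2 and 58.4 CPM with DMSO, 105, 105 and 132 under i-BET858 and 99.1, 100 and 106 under i-BET151. The inhibitor libraries were all above the DMSO libraries. It rose 2.01-fold under i-BET858 (1.01 ± 0.12, adjusted p = 6.31e-05) and 1.81-fold under i-BET151 (0.86 ± 0.12, adjusted p = 0.000276), which is under the fold required. Without DMSO replicate 1 or 2, without i-BET858 replicate 3 or without replicate 3 throughout, the i-BET858 value for HOXA5 fell just short of 2-fold, with 0.96 without DMSO replicate 2, just under 1.0 without DMSO replicate 1, 0.90 without i-BET858 replicate 3 and 0.94 without replicate 3 throughout. Over all omissions of 1 library it was 0.90 to 1.08, with an adjusted p of at most 0.000585. Scaled by total counts, which shifts the median of all genes to -0.10, the i-BET858 value for HOXA5 was 0.92.

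HOXA2 at 24 h had 12.8, 12.8 and 10.1 CPM with DMSO, 16.1, 19.2 and 14.5 under i-BET858 and 14.0, 13.2 and 14.3 under i-BET151. Every inhibitor library was above DMSO, with changes of 0.44 ± 0.15 (adjusted p = 0.0391) and 0.19 ± 0.15 (adjusted p = 0.367). HOXA3 had 42.3, 43.2 and 45.4 CPM with DMSO, 49.9, 49.1 and 47.4 under i-BET858 and 43.7, 44.1 and 48.6 under i-BET151, and its changes of 0.12 ± 0.09 (adjusted p = 0.333) and 0.04 ± 0.09 (adjusted p = 0.797) did not pass. HOXA7 had 4.33, 4.75 and 4.17 CPM with DMSO, 2.37, 2.36 and 3.86 under i-BET858 and 4.00, 2.46 and 2.82 under i-BET151. These lay below DMSO but did not pass (-0.67 ± 0.28, adjusted p = 0.0808, and -0.53 ± 0.28, adjusted p = 0.173). HOXA9 had changes of 0.12 and -0.06 (adjusted p = 0.636 and 0.852).

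At the posterior end of the same cluster, HOXA10 and HOXA11 were low. HOXA10 (9.9% of exon bases on the same and 16.4% on the opposite strand of other genes) had 1.64, 2.05 and 2.20 CPM with DMSO, 0.327, 0.472 and 1.49 under i-BET858 and 0.342, 0.456 and 0.466 under i-BET151. The third i-BET858 library lay near DMSO. HOXA10 fell 4.72-fold under i-BET151 (-2.24 ± 0.58, adjusted p = 0.013), a call lost at an adjusted p of 0.0504 without i-BET151 replicate 1 (-2.36 to -2.11 over the omissions). Under i-BET858 the change of -1.41 ± 0.56 (adjusted p = 0.0667) was not called but passed with the replicate block (-1.61, adjusted p = 0.0189) and without i-BET858 replicate 3 (-2.31). It also passed by DESeq2 (0.0358), by total library size (0.0474), with at least 10 counts in every library (0.0321) and in replicates 1 and 2 alone (0.000143), but not in the other alternatives to the fit.

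HOXA11 had 14, 10 and 15 counts with DMSO at 24 h, 0, 1 and 0 under i-BET858 and 2, 2 and 0 under i-BET151, and 27.2% of its exon bases lie opposite HOXA11-AS. It passed the filter through its DMSO libraries alone. Both changes were called lower (edgeR adjusted p = 0.00674 and 0.03). From the summed counts it was 52.4-fold lower under i-BET858 (95% counting interval 8.87 to 2120) and 11.6-fold lower under i-BET151 (4.19 to 44.8). The i-BET151 call was lost without any DMSO replicate or without replicate 1 or 2 of either inhibitor (fitted log2 fold change -3.85 to -2.88, adjusted p up to 0.095).

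In HOXB at 24 h, HOXB7 had the largest called fall of the cluster with either inhibitor. It lay at 19.1, 21.3 and 16 CPM with DMSO, 3.9, 3.64 and 4.27 under i-BET858 and 5.79, 4.96 and 3.41 under i-BET151, with a wide gap between groups. HOXB7 fell 4.89-fold (-2.29 ± 0.21, adjusted p = 1.40e-05) and 4.03-fold (-2.01 ± 0.21, adjusted p = 5.33e-05). HOXB13 had 14.1, 12.2 and 12.5 CPM with DMSO, 4.40, 4.28 and 5.53 under i-BET858 and 4.61, 3.98 and 4.16 under i-BET151. It fell 2.81-fold (-1.49 ± 0.17, adjusted p = 6.89e-05) and 3.08-fold (-1.62 ± 0.17, adjusted p = 6.90e-05), and all 4 of these calls held with each library left out.

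HOXB2 had 7.54, 6.20 and 7.33 CPM with DMSO, 3.79, 2.20 and 3.83 under i-BET858 and 3.78, 3.32 and 4.57 under i-BET151. Its changes were -1.14 ± 0.25 (adjusted p = 0.00424), called, and -0.87 ± 0.25 (adjusted p = 0.0211), under 2-fold. Without i-BET858 replicate 2 the former was also under 2-fold (-1.26 to -0.93 over the omissions). HOXB4 had 8.51, 7.44 and 7.96 CPM with DMSO, 4.92, 5.31 and 5.53 under i-BET858 and 5.32, 4.99 and 4.74 under i-BET151, with all inhibitor libraries below DMSO. Its changes of -0.64 ± 0.16 (adjusted p = 0.00933) and -0.69 ± 0.17 (adjusted p = 0.00829) were 1.56-fold and 1.61-fold, under the fold required. HOXB3 had 4.76, 5.12 and 2.52 CPM with DMSO, 2.35, 2.20 and 0.117 under i-BET858 and 3.56, 2.98 and 3.81 under i-BET151, with replicate 3 lowest in the first 2 groups. Its i-BET858 change of -1.43 ± 0.67 (adjusted p = 0.113) passed with the replicate block (-1.58, adjusted p = 0.0259), without a filter (0.00134) and in replicates 1 and 2 alone (0.000172). That under i-BET151 was -0.27 ± 0.65 (adjusted p = 0.786).

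In HOXC at 24 h, HOXC4, HOXC6 and HOXC8 were called lower with both inhibitors. HOXC6 had 4.45, 3.74 and 4.68 CPM with DMSO, 1.48, 1.78 and 1.84 under i-BET858 and 1.32, 1.03 and 1.14 under i-BET151, a fall of 2.60-fold (-1.38 ± 0.26, adjusted p = 0.00163) and 3.74-fold (-1.90 ± 0.27, adjusted p = 0.000361). HOXC4 had 3.33, 2.86 and 4.40 CPM with DMSO, 1.13, 1.81 and 1.20 under i-BET858 and 1.20, 1.00 and 0.378 under i-BET151. Neither gene overlapped between DMSO and inhibitor libraries. HOXC4 changed by -1.40 ± 0.42 (adjusted p = 0.0207) and -2.06 ± 0.43 (adjusted p = 0.00412), of which the i-BET858 call was lost in the fit of all 18 libraries (-1.36, adjusted p = 0.0931) and without i-BET858 replicate 1 or 3 or DMSO replicate 3 (-1.64 to -1.18, adjusted p up to 0.0814).

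HOXC8 (chr12:54008985-54012769, no exon overlap), which acts in the lower thorax, had 12, 15 and 21 counts with DMSO, 4, 3 and 0 under i-BET858 and 2, 0 and 0 under i-BET151. It too passed the filter through its DMSO libraries alone. From summed counts it was 9.22-fold (4.15 to 24.1) and 28.6-fold (7.5 to 243) lower, with edgeR adjusted p = 0.0375 and 0.0143. The i-BET858 call was lost without any DMSO or i-BET858 replicate or i-BET151 replicate 1 or 2 (fitted log2 fold change -3.53 to -2.56, adjusted p up to 0.106), and the i-BET151 call without i-BET151 replicate 2 (-7.18 to -4.14, adjusted p up to 0.0748). At 4 h HOXC8 had 0.276, 0.232 and 0.564 CPM with DMSO, 0.474, 0.230 and 0.653 under i-BET858 and 0.104, 0.218 and 0 under i-BET151, and was not called.

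In HOXD, only 3 members were tested at 24 h, of which HOXD8 and HOXD11 were called lower with both inhibitors. The other, HOXD13, lay below DMSO in every inhibitor library but did not pass (-1.79 ± 0.89, edgeR adjusted p = 0.134, and -1.61 ± 0.89, adjusted p = 0.193). It passed with both inhibitors without a filter (adjusted p = 0.0141 and 0.0351) and in replicates 1 and 2 alone (0.00205 and 0.0178). With only the 2 groups compared it passed under i-BET858 (0.00656). HOXD11 was tested only through its DMSO libraries, so the share of HOXD called is no support for a direction in the cluster. HOXD9, below the filter, had 17, 7 and 15 counts with DMSO, 2, 0 and 0 under i-BET858 and 1, 2 and 0 under i-BET151. DESeq2 (adjusted p = 0.00777 and 0.019) and the edgeR fit of all 18 libraries (0.0119 and 0.0291) called it lower with both. Only DMSO libraries of HOXD9 were above the filter (1 at 4 h and 2 at 24 h, with 0 inhibitor libraries). Its calls are therefore a description and no support for a direction. HOXD8 (chr2:176129694-176132695, 24.4% of exon bases opposite HOXD-AS2) had 7.73, 7.11 and 6.59 CPM with DMSO, 2.02, 1.89 and 1.55 under i-BET858 and 3.08, 2.77 and 2.04 under i-BET151. The groups did not overlap, with a fall of 4.02-fold (-2.01 ± 0.23, adjusted p = 6.92e-05) and 2.76-fold (-1.46 ± 0.23, adjusted p = 0.000708), and both calls held with each library left out. HOXD11 (chr2:176104216-176109754, 21.4% shared with HOXD10), a gene of forearm patterning, had 21, 19 and 57 counts with DMSO, 5, 6 and 0 under i-BET858 and 4, 1 and 0 under i-BET151. DMSO replicate 3 stood well above the other two DMSO libraries. From summed counts HOXD11 was 11.9-fold (6.34 to 24.5) and 23.1-fold (9.58 to 72.8) lower, with edgeR adjusted p = 0.0231 and 0.0127. Its i-BET858 call was lost without i-BET858 replicate 1 or DMSO replicate 3 (fitted log2 fold change -4.12 to -2.74, adjusted p up to 0.0912), and its i-BET151 call without i-BET151 replicate 2 (-5.83 to -3.74, adjusted p up to 0.0658). At 4 h HOXD11 had 0.184, 0.309 and 0.345 CPM with DMSO, 0.0730, 0.295 and 0.426 under i-BET858 and 0.278, 0.182 and 0 under i-BET151.

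**Figure D2:**
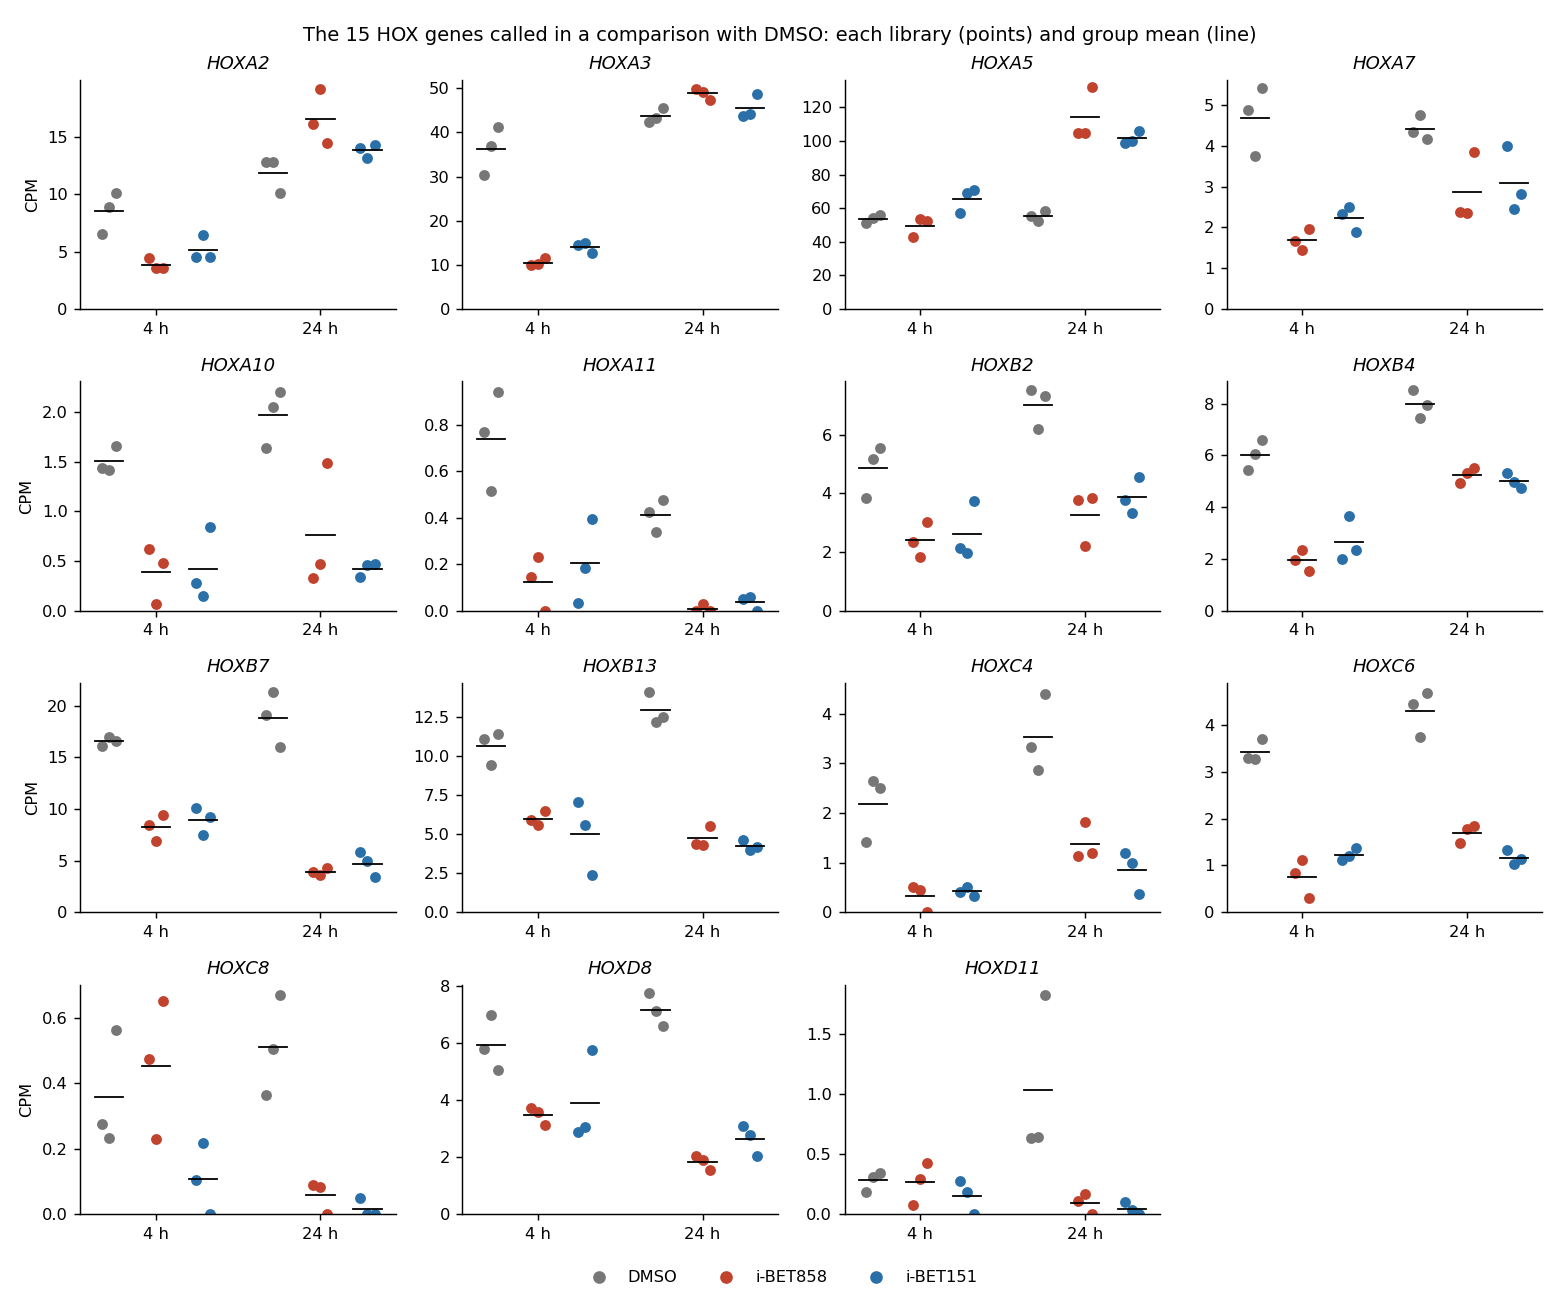
CPM in each library (points, with the group mean as a line; linear axes from 0) of the 15 members called with either inhibitor at either time, by treatment and time, with 3 replicates per group. HOXA5 rises from 52.2 to 58.4 CPM with DMSO to 99.1 to 132 with the inhibitors at 24 h, and HOXB7 falls from 16 to 21.3 to 3.41 to 5.79.

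By cluster, the calls at 4 h were 3 of 8 HOXA members tested, 2 of 6 HOXB, 2 of 4 HOXC and 0 of 6 HOXD under i-BET858, and 2, 2, 1 and 0 under i-BET151, all lower, where 7% and 2.97% of all genes were lower. At 24 h, HOXA had 1 higher and 1 lower of 8 under i-BET858 and 0 higher and 2 lower under i-BET151. The other clusters had lower calls only: 3 and 2 of 7 for HOXB, 3 and 3 of 4 for HOXC and 2 and 2 of 3 for HOXD, where 11.2% and 8.09% of all genes were lower. Median log2 fold changes at 4 h were -1.30 (i-BET858) and -1.22 (i-BET151) for HOXA, -0.93 and -0.96 for HOXB, -1.22 and -1.61 for HOXC and -0.08 and -0.84 for HOXD. At 24 h they were 0.10 and -0.24 for HOXA, -1.43 and -0.69 for HOXB, -1.39 and -1.98 for HOXC and -2.01 and -1.61 for HOXD. The medians include low members that did not pass the test. Counts, medians and the numbers tested also include members that passed the filter only with their DMSO libraries, with fewer than 3 inhibitor libraries above it. These were HOXA11, HOXC8, HOXD4, HOXD10 and HOXD11 at 4 h, none of them called, and HOXA11, HOXB6, HOXC8 and HOXD11 at 24 h. Without them, lower calls at 24 h numbered 0 and 1 of 7 for HOXA, 3 and 2 of 6 for HOXB, 2 and 2 of 3 for HOXC and 1 and 1 of 2 for HOXD.

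Along the HOXA cluster at 24 h, HOXA10 and HOXA11 towards the posterior end lay lowest and HOXA5 in the middle highest. Spearman's rho between log2 fold change and distance from the anterior end was -0.72 under i-BET858 and -0.76 under i-BET151 over the 8 members tested, and -0.36 and -0.43 at 4 h. Without HOXA11, which passed the filter only with its DMSO libraries, rho over 7 members was -0.58 and -0.64 at 24 h and -0.04 and -0.14 at 4 h, values chosen after seeing the data. These are descriptions across genes that share their libraries and, in part, exons. HOXB gave -0.29 and -0.36 at 24 h (7 members, and -0.26 and -0.31 over 6 without HOXB6) and 0.66 and -0.09 at 4 h (6 members). HOXD gave -0.60 and -0.23 at 4 h (6 members). Of these, 3 (HOXD4, HOXD10 and HOXD11) passed the filter only with their DMSO libraries, and the 3 others are too few for a value. Too few HOXC members, and HOXD members at 24 h, were tested for a value. Of the HOXA and HOXB values, only that of HOXB under i-BET858 at 4 h was above 0. Over all clusters at 24 h, paralogue groups 1 to 3 had medians of -0.51 and -0.12 (4 members), groups 4 to 8 -1.39 and -1.08 (10 members) and groups 9 to 13 -1.45 and -1.62 (8 members). At 4 h these medians were -1.01 and -1.02 (5 members), -0.88 and -1.12 (10) and -0.26 and -0.89 (9). Those of groups 4 to 8 and 9 to 13 include members that passed the filter only with their DMSO libraries. At 24 h these were HOXB6 and HOXC8 in groups 4 to 8, and HOXA11 and HOXD11 in groups 9 to 13. At 4 h they were HOXC8 and HOXD4, and HOXA11, HOXD10 and HOXD11. The medians are therefore no support for a trend with position.

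**Figure D3:**
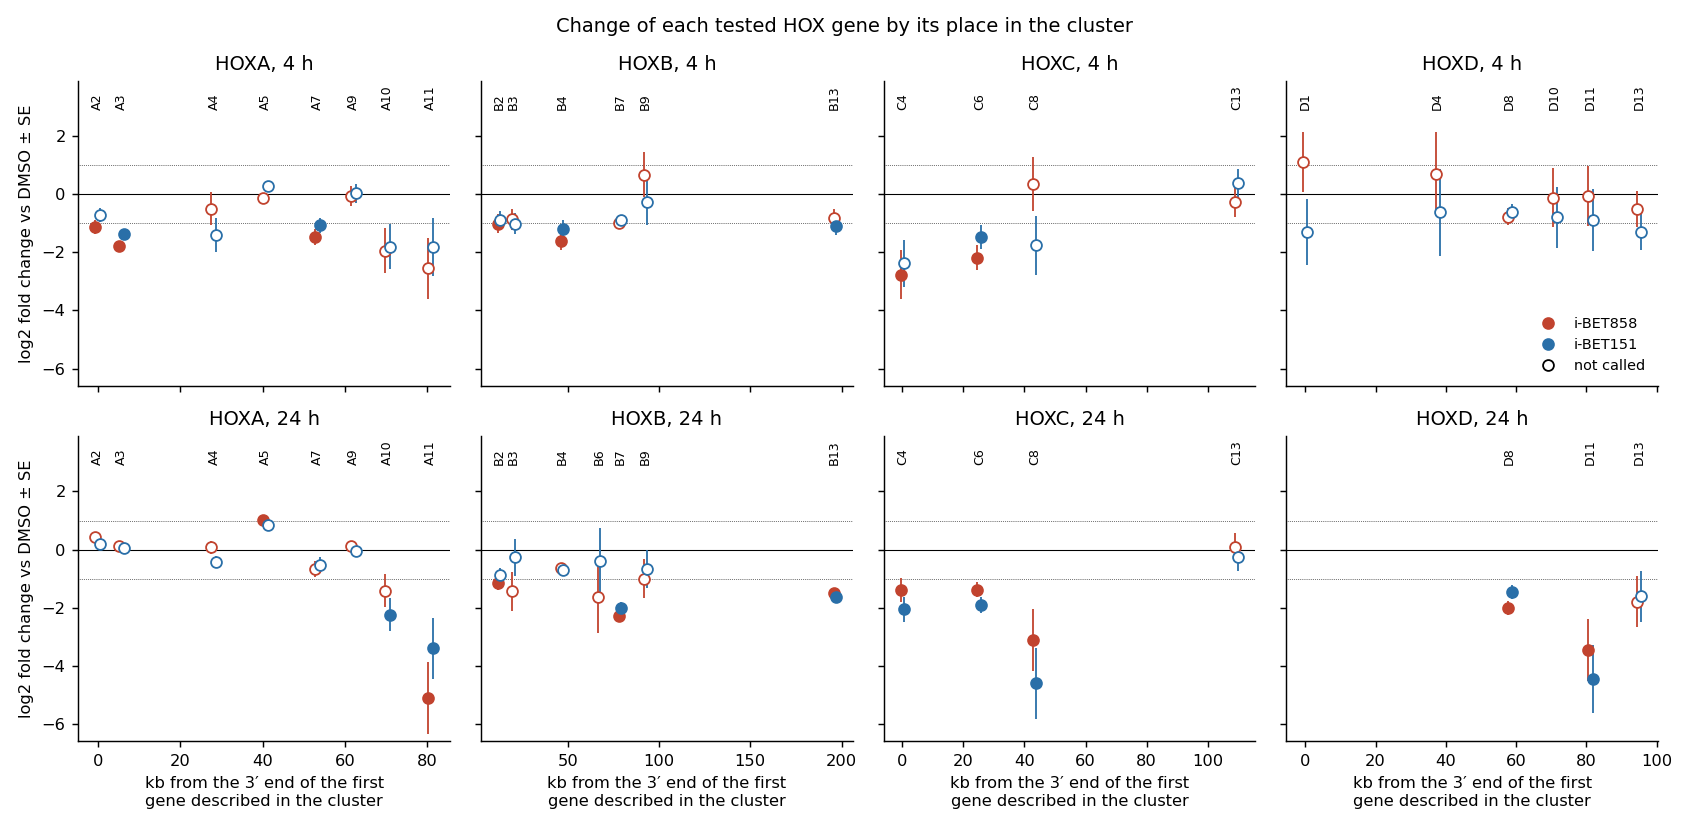
Log2 fold change against DMSO (points with 1 SE, filled where called) of each member tested, against its distance in kb from the first gene described at the anterior end of its cluster, for both inhibitors at 4 h and 24 h. At 24 h, HOXA members run from 1.01 and 0.86 (HOXA5) to -5.12 and -3.40 (HOXA11, from few counts).

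Summed over the members described of a cluster, the level per length at 24 h was higher with the inhibitors in HOXA, through HOXA5, and lower in the other clusters. The HOXA sum was 54.2 ± 1.59 RPKM (SD, n = 3) with DMSO, 90.8 ± 8.58 under i-BET858 and 80.8 ± 2.72 under i-BET151. HOXA5 alone went from 32.1 ± 1.83 to 66.3 ± 9.27 and 59.1 ± 2.16 RPKM. The other HOXA members together, split off after the values were seen, had 22.0 ± 0.24 with DMSO, 24.4 ± 0.837 under i-BET858 and 21.7 ± 0.62 under i-BET151, where i-BET151 overlapped with DMSO. HOXB went from 24.7 ± 2.05 to 8.68 ± 0.521 and 9.53 ± 0.787, HOXC from 3.33 ± 0.474 to 1.53 ± 0.258 and 1.20 ± 0.202, and HOXD from 4.74 ± 0.161 to 1.13 ± 0.239 and 1.41 ± 0.557. No DMSO library overlapped with an inhibitor library in any of the 4 cluster sums. The share of HOXA in the HOX total thus went from 62.3% with DMSO to 88.8% and 86.9%. At 4 h the sums were 50.1 ± 4.37, 37.0 ± 3.84 and 47.3 ± 4.25 for HOXA, where i-BET151 overlapped with DMSO (18.8 ± 2.94, 8.05 ± 0.639 and 9.18 ± 1.38 without HOXA5, with no overlap), 20.4 ± 0.898, 10.5 ± 1.24 and 10.5 ± 1.01 for HOXB, 2.59 ± 0.29, 1.11 ± 0.17 and 1.18 ± 0.221 for HOXC and 3.66 ± 0.429, 2.77 ± 0.26 and 2.22 ± 0.425 for HOXD.

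**Figure D4:**
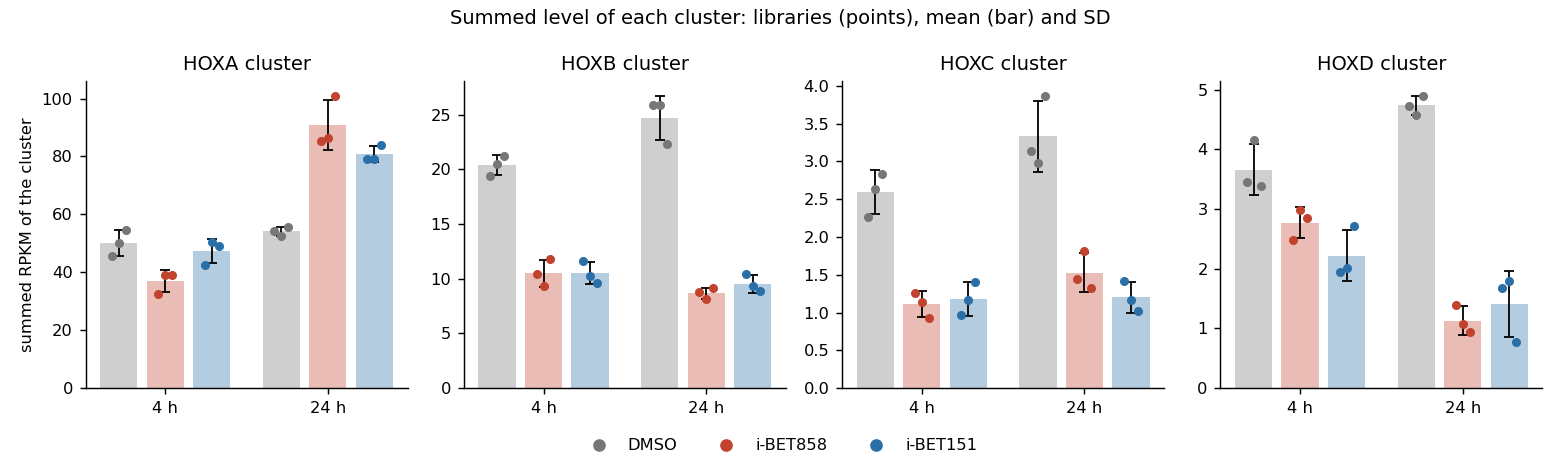
Summed RPKM of each HOX cluster in each library (points) with group means (bars) and SD, by treatment and time. The HOXA sum is higher with both inhibitors at 24 h (79.2 to 101 against 52.6 to 55.8 RPKM), while those of HOXB, HOXC and HOXD are lower. HOXA5 makes up most of the HOXA sum.

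Whether an effect differed between 4 and 24 h was tested in 1 fit of all libraries, in which 27 members were tested. The i-BET858 effect changed for 6 of them, where 6.87% of all genes tested changed upward and 8.21% downward (15.1% in either direction). The change was upward for HOXA3 (1.94 ± 0.17, adjusted p = 7.28e-07), HOXA2 (1.62 ± 0.28, adjusted p = 0.000351), HOXA5 (1.16 ± 0.17, adjusted p = 8.30e-05) and HOXB4 (1.02 ± 0.32, adjusted p = 0.0238). It was downward for HOXB7 (-1.25 ± 0.28, adjusted p = 0.00257) and HOXD8 (-1.19 ± 0.37, adjusted p = 0.024). The i-BET151 effect changed for 2, against 2.5% upward and 4.2% downward (6.7% in either direction) of all genes: HOXA3 (1.42 ± 0.17, adjusted p = 5.58e-05) and HOXB7 (-1.09 ± 0.28, adjusted p = 0.0134). By the adjusted p alone, or at 1.5-fold, 4 members were called (13.8% and 12.5% of all genes), which added HOXA2 (0.93, adjusted p = 0.032) and HOXA5 (0.60, adjusted p = 0.0261).

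HOXA2, HOXA3, HOXA5 and HOXB7 under i-BET858 and HOXA3 under i-BET151 kept their calls with each library left out. The call of HOXB4 was lost without i-BET858 replicate 1 or 3 or DMSO replicate 3 at 4 h, or DMSO replicate 2 or i-BET858 replicate 3 at 24 h (0.84 to 1.17, adjusted p up to 0.0725), and was 0.75 without replicate 3 throughout. It was also under 2-fold by DESeq2 (0.97), with its size factors (0.97) and with at least 10 counts in every library (0.93), and without a filter neither HOXB4 (1.04, adjusted p = 0.127) nor HOXD8 (-1.16, adjusted p = 0.104) passed. That of HOXD8 was lost without DMSO replicate 1 or 3 or i-BET858 replicate 1 at 4 h, or DMSO replicate 1 or i-BET858 replicate 3 at 24 h (-1.32 to -1.08, adjusted p up to 0.0629). The i-BET151 change of HOXB7 was lost without i-BET151 replicate 1 at 4 h or DMSO replicate 2 or i-BET151 replicate 3 at 24 h (-1.27 to -0.90).

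Compared directly at 1 µM, the inhibitors were not told apart in any HOX gene. By edgeR, 0 of 24 members differed at 4 h (0.209% of all genes called) and 0 of 22 at 24 h (0.0641%). DESeq2 gave an adjusted p to only 12 members at 4 h and 18 at 24 h and called 0 of them (0.648% and 0.511% of all genes). An unadjusted p under 0.05 was reached by 2 members at 4 h (11.9% of all genes) and 2 at 24 h (11.4%). At 4 h these were HOXA3, lower under i-BET858 by 0.41 (log2 difference -0.41, 95% interval -0.76 to -0.07), and HOXA5 (-0.39, -0.69 to -0.10). At 24 h they were HOXA4 (0.51, 0.03 to 0.99) and HOXD8 (-0.54, -1.05 to -0.03), whose adjusted p was 0.401 and 0.404. In 46 gene-by-time comparisons the precision differed with abundance. The narrowest 95% interval was that of HOXA3 at 24 h (0.08, -0.12 to 0.29), and HOXA5 at 24 h had 0.15 (-0.10 to 0.40). HOXB7 had -0.10 (-0.51 to 0.30) at 4 h and -0.28 (-0.74 to 0.18) at 24 h, and HOXC6 had -0.70 (-1.65 to 0.24) and 0.53 (-0.06 to 1.11). For low members the intervals spanned several-fold differences, as for HOXC8 (2.10, -0.14 to 4.33) and HOXD1 (2.41, -0.06 to 4.89) at 4 h. Both passed the filter on low counts only with their i-BET858 libraries, so their values are no support for a direction. These intervals do not show that the inhibitors act alike.

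No HOX gene was called between 24 and 4 h of DMSO by edgeR (0 of 27, with 0.00551% of all genes called) or DESeq2 (0 of the 16 members with an adjusted p, with 0.172% of all genes called). With an unadjusted p under 0.05 (9.17% of all genes), 2 members were higher at 24 h, HOXA2 by 0.48 (adjusted p = 0.432) and HOXA3 by 0.27 (adjusted p = 0.485) on the log2 scale. Low members were measured too imprecisely to bound a difference. HOXD11, whose 24 h libraries (0.636, 0.64 and 1.82 CPM) all lay above those of 4 h, had 1.87 (95% interval -0.35 to 4.09), HOXB6 had 1.16 (-1.24 to 3.57) and HOXD9 1.11 (-1.08 to 3.31).

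Noncoding RNAs within the clusters are often transcribed from promoters shared with HOX genes, and their reads cannot be separated from overlapping HOX exons here. The counts for the lists of genes from here on stand against 7.08% higher and 7% lower of all genes under i-BET858 and 4.12% and 2.97% under i-BET151 at 4 h, and 7.65%, 11.2%, 5.59% and 8.09% in the same order at 24 h. Of 63 other genes listed there that do not code for protein (29 lncRNA, 21 miscellaneous RNA, 8 miRNA, 4 processed pseudogenes and 1 unclassified), 7 were tested at 4 h and 6 at 24 h. Under i-BET858 at 4 h, 1 was called higher and 0 lower, and under i-BET151 0 were called. The former was HOTAIRM1, a noncoding RNA of the HOXA cluster (1.96, adjusted p = 0.0258, and 1.67 under i-BET151, not called). At 24 h, 1 was called higher and 2 lower under i-BET858, and 0 and 2 under i-BET151. HOXA-AS2 rose under i-BET858 (1.07, adjusted p = 0.000888, and 0.79 under i-BET151, under 2-fold), and HOTAIRM1 had 0.83 and 0.88, which were not called. HOXA-AS3, opposite HOXA6 and HOXA7, fell by 1.16 (adjusted p = 0.0274) and 1.11 (adjusted p = 0.0393). HAGLR, a HOXD transcript, fell by 1.61 (adjusted p = 0.000341) and 1.47 (adjusted p = 0.000882).

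Of 9 protein-coding genes listed next to the clusters, 6 were tested at 4 h and 5 at 24 h, and 0 were called with either inhibitor by edgeR (an unadjusted p under 0.05 was reached by 2 and 1 neighbours at 4 h and by 4 and 4 at 24 h, for i-BET858 and i-BET151 in turn, as by 40.4%, 29.5%, 49% and 43.4% of all genes). At 24 h SKAP2, next to the HOXA cluster, had log2 fold changes of 0.53 and 0.78, and LNPK, at the posterior side of HOXD, had 1.00 (adjusted p = 0.000268, just under 2-fold) and 0.81. MTX2, at the anterior side of HOXD, had -0.40 and -0.31, SMUG1 0.01 and 0.02 and CALCOCO1 0.59 and 0.63.

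TALE homeodomain proteins (PBX, MEIS, PKNOX and TGIF families) bind DNA with HOX proteins or compete for their cofactor sites. Of 11 listed, 10 were tested, with 1 lower call per inhibitor at 4 h, 2 under i-BET858 and 1 under i-BET151 at 24 h, and 0 higher calls. Under i-BET858 these 1 and 2 of 10 stand beside 7% and 11.2% of all genes called lower. TGIF2, a repressor, fell by 1.94 (adjusted p = 3.37e-05) and 1.73 (adjusted p = 0.000199) at 4 h and by 1.82 (adjusted p = 6.53e-07) and 1.15 (adjusted p = 1.22e-05) at 24 h. PBX2 was the other lower call (-1.40 under i-BET858 at 24 h, adjusted p = 4.31e-06). MEIS1, a cofactor of HOXA9, had -0.73 and -0.69 at 4 h and 0.98 and 0.57 at 24 h, none called, and its effect changed between the times by 1.75 (adjusted p = 2.78e-06) and 1.28 (adjusted p = 0.000184). That of MEIS3 under i-BET858 changed by -1.35 (adjusted p = 0.0179), the only other call of the 10 for a change of effect. For a change of effect, 15.1% of all genes were called under i-BET858 and 6.7% under i-BET151, and such calls were also made in the next 2 lists. The list medians were -0.68 and -0.68 at 4 h and -0.40 and -0.15 at 24 h.

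Polycomb proteins keep HOX clusters silent, and all 22 genes listed were tested. Under i-BET858 at 4 h, 1 was higher and 4 lower by edgeR, where 7.08% of all genes were higher and 7% lower. Under i-BET151 0 were called (10 at an unadjusted p under 0.05, as were 29.5% of all genes). PHC2 rose under i-BET858 (1.06). AEBP2 (-1.49), BMI1 (-1.37), CBX6 (-1.31) and PHC3 (-1.01) fell under i-BET858. At 24 h, 0 were higher and 3 lower under i-BET858, and 0 and 2 under i-BET151 (14 and 10 at an unadjusted p under 0.05, as were 49% and 43.4% of all genes). CBX7 fell under i-BET858 (-1.08), and PHF19 (-2.06 and -1.66) and PCGF2 (-1.40 and -1.25) fell with both. The medians were -0.44 and -0.32 at 4 h and 0 and 0.01 at 24 h. The i-BET858 effect changed upward for 6 and downward for 1 of the 22 (6.87% and 8.21% of all genes), and the i-BET151 effect for 3 and 1 (2.5% and 4.2%).

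Trithorax genes and other listed regulators of HOX genes, not all of them plain activators, comprised 23 genes, of which 20 were tested. At 4 h, 2 fell under i-BET858, ASXL1 (-1.02) and the retinoic acid receptor RARG (-1.02), and 0 were called under i-BET151, where RARG had -0.93. At 24 h, 2 were higher with each inhibitor, the elongation factors AFF1 (1.16 and 1.21) and AFF4 (1.13 and 1.02). RARG fell with both (-2.53 and -1.99) and RARA under i-BET858 (-1.31), so that 2 and 1 were lower. The medians were -0.33 and -0.09 at 4 h and 0.22 and 0.25 at 24 h, against medians of 0.02, 0.01, -0.01 and 0 over all genes in these 4 comparisons. The i-BET858 effect changed upward for 5 and downward for 1 of the 20 (6.87% and 8.21% of all genes), and the i-BET151 effect for 0 and 1 (2.5% and 4.2%).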

How the data were processed

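Poly-A RNA of OVCAR-3 was sequenced. The deposited values are raw counts per gene in 2 tables, 1 per time, made by the authors with STAR on GRCh38. DESeq2 is also named in the submitters' processing notes, without versions. Columns name treatment and replicate, and the time was taken from the table. Symbols, positions, exon lengths and overlaps came from GENCODE 44 (58472 of 58825 identifiers matched). Library totals were 27323969 to 46299994. Members and lists were chosen with earlier results of these data known. A few genes of the rule and the lists are not reported here and were left out of all counts, medians and sums of members and lists.

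Each time was fitted with edgeR 4.0.16 (R 4.3.3) over its 9 libraries (TMM, filterByExpr, quasi-likelihood test, Benjamini-Hochberg over all genes tested). A change of effect, and DMSO between times, came from 1 fit of 18 libraries. Members were called at an adjusted p below 0.05 if they also changed 2-fold or more. CPM were counts divided by TMM-scaled totals of all 18 libraries, and RPKM divided these by the union of exons. Members called with an inhibitor and the leading member of each cluster are given in full, others in ranges and counts. Tested on simulated data with 200 genes changed 4-fold, the fit for i-BET858 recovered 199 at 4 h (0 false calls) and 199 at 24 h (3 false), and that for the change of effect 197 (3 false). The changed genes were drawn from genes above a minimum mean count at 4 h, and 1 small fixed spread was used for all genes. Recovery of members with few counts or a larger spread, or of changes near 2-fold, was not tested.

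Alternatives were DESeq2 1.42.0, its size factors, total library size, no filter, at least 10 counts in every library, a replicate block, replicates 1 and 2 only, each library left out, the adjusted p alone, a 1.5-fold threshold, the longest transcript for RPKM, and fits of all 18 libraries or of the 2 groups compared. Libraries of the same replicate number were treated as pairs in the block, since every pair of the same number had correlated deviations from its group means (0.125 to 0.344 at 4 h, median 0.274, and 0.145 to 0.33 at 24 h, median 0.263). Pairs of different numbers had -0.311 to 0.216 and -0.304 to 0.285.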

Additional observations from a re-analysis of the deposited data

Results flagged for a closer look

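For 6 members the test of the change itself found that the i-BET858 effect differed between 4 and 24 h, where 15.1% of all genes were called. On the log2 scale, as 24 h minus 4 h, HOXA3 changed by 1.94, HOXA2 by 1.62, HOXA5 by 1.16 and HOXB4 by 1.02, while HOXB7 changed by -1.25 and HOXD8 by -1.19. The i-BET151 effect differed for 2 of 27 members, HOXA3 (1.42) and HOXB7 (-1.09), close to the 6.7% of all genes called. HOXA2 (0.93, edgeR adjusted p = 0.032) and HOXA5 (0.60, adjusted p = 0.0261) passed the adjusted p but not the fold required. The calls of HOXB4 and HOXD8, and that of HOXB7 under i-BET151, were lost with some libraries left out. Those of HOXB4 and HOXD8 were also lost without a filter on low counts, and that of HOXB4 by DESeq2 (0.97), with its size factors (0.97), with at least 10 counts in every library (0.93) and without replicate 3 (0.75). Both inhibitors share their DMSO libraries. The cause was not tested.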

How the results depend on the processing

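Replicate 3 detected fewer genes, low members (HOXA10, HOXA11, HOXC4, HOXC8, HOXD11) rest on few counts, and overlapping exons cannot be assigned. With replicates 1 and 2 only, the numbers of HOX calls were 11 (i-BET858, 4 h), 8 (i-BET151, 4 h), 10 (change of the i-BET858 effect) and 4 (change of the i-BET151 effect), against 7, 5, 6 and 2. In these fits 19.4%, 11%, 21% and 11.5% of all genes were called, against 14.1%, 7.1%, 15.1% and 6.7%. With the replicate block, i-BET151 at 4 h had 9 calls (8.85% of all genes), and in the comparisons with DMSO the pairing lost no call and gained only HOXA10, HOXB7, HOXC4, HOXB3 and HOXD13. The change of the i-BET151 effect had 4 by the adjusted p alone and 4 at 1.5-fold. Over the fits with a library left out, calls numbered 5 to 10 (i-BET858) and 1 to 6 (i-BET151) at 4 h, 7 to 12 and 6 to 10 at 24 h, 4 to 7 and 1 to 3 for the changes of effect, and 0 to 0 between the inhibitors and between DMSO times, where the shares of all genes were 11.5 to 15.3%, 5.4 to 8.04%, 16.5 to 20.3%, 11 to 14.4%, 12.8 to 15.5%, 4.77 to 6.88% and at most 0.186%. Over all members tested, the sign reversed under some alternative for 6 and 4 at 4 h and 2 and 4 at 24 h (i-BET858 and i-BET151 in turn), 0 of which had an adjusted p under 0.05. Among the 15 called members these were HOXC8 (-0.02 to 0.82) and HOXD11 (-0.57 to 0.37) with i-BET858 at 4 h, and HOXA3 with i-BET151 at 24 h (-0.02 to 0.09). Total library size put the median of all genes at -0.14 (i-BET858, 4 h) and reversed none of the called members' values. At least 10 counts in every library ended the calls of HOXB2 and HOXC4 (i-BET858) at 4 h and those of HOXA11, HOXC8 and HOXD11 at 24 h. Without a filter the calls of HOXA7 (i-BET151, 4 h, adjusted p = 0.0706), HOXC8 (i-BET858, 24 h, 0.101) and HOXA11 (i-BET151, 24 h, 0.126) were lost. Leaving out members that passed the filter only with their DMSO libraries, chosen after seeing the data, gave 7 and 5 calls at 4 h and 7 and 6 at 24 h. The cause of the other differences was not tested.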
